A study of Mus musculus with 6 samples.

Results

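The genes followed here are 9 genes of androgen and estrogen metabolism and reception, in mouse testis with and without H3t. They were taken by symbol from the table of raw counts, which held a row for all 9 of them among 54100 genes. Cyp19a1, Srd5a1, Srd5a3, Akr1c14, Hsd17b4, Hsd17b12, Hsd11b1 and Sult1e1 encode enzymes, and Esr1 encodes a receptor.

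Bulk RNA-seq libraries came from 3 wild-type (WT) testes and 3 testes of mice that lack H3t through a deletion, H3t being a variant form of histone H3 in male germ cells. Total RNA was taken from frozen tissue sections, so a library can hold RNA of every cell type in the section. The series was made to study Leydig cells where sperm formation is disrupted. No further allele or treatment was named for either group, and strain, age and litter were not given in the labels. Spatial transcriptomics, also named in the series' design, was not analysed here. Libraries are called WT replicates 1 to 3 and deletion replicates 1 to 3.

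Testosterone is made in Leydig cells from cholesterol and can then take several routes. Aromatase turns androgens into estrogens, reductases turn testosterone into dihydrotestosterone, ketosteroid reductases and dehydrogenases interconvert strong and weak steroids, and estrogen sulfotransferase adds a sulfate that keeps estrogens from binding their receptors. In the mouse testis estrogen sulfotransferase is known from Leydig cells, aromatase from Leydig and germ cells, and estrogen receptor alpha from Leydig and peritubular cells and, at high levels, from the efferent ducts.

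Start regions were read from RefSeq's table for GRCm38.p6, in which 8 of the 9 genes had 11 windows of 300 bases, each with 250 bases before and 50 after an annotated start. Hsd17b4 had none. Sult1e1 is shown for its gain, Cyp19a1 for its loss, and Srd5a1 and Srd5a3 as relatives with unlike changes. Capitals mark every match, on either strand, to AGGTCA (the core of nuclear receptor sites), GGGCGG (the GC box), TGACG (the core of the cAMP response element) or TATAAA (the TATA box).
Sult1e1, chr5:87591562-87591861, minus strand: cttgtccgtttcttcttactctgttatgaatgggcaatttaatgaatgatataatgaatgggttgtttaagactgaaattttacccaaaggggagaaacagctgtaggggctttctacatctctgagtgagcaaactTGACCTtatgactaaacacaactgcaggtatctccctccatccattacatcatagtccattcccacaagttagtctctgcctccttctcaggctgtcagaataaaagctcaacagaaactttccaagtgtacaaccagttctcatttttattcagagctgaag
Cyp19a1, outermost start, chr9:54268115-54268414, minus strand: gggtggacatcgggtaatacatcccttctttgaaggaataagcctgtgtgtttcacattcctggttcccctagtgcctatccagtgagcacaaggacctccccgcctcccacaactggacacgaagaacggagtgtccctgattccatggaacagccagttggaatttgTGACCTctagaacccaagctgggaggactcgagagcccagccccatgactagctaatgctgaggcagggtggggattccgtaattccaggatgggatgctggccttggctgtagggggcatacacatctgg
Cyp19a1, middle start, chr9:54228865-54229164, minus strand: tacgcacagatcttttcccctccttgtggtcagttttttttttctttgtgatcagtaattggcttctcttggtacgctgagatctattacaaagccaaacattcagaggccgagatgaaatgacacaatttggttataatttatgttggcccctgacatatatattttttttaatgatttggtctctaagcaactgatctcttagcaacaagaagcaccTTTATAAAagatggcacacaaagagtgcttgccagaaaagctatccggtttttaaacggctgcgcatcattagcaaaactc
Cyp19a1, innermost start, chr9:54193694-54193993, minus strand: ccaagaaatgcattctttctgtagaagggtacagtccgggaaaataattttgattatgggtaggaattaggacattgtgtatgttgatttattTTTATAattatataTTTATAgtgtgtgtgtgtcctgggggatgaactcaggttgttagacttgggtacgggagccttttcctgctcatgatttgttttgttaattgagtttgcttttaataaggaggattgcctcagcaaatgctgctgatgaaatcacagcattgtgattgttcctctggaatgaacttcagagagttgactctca
Srd5a1, chr13:69611414-69611713, minus strand: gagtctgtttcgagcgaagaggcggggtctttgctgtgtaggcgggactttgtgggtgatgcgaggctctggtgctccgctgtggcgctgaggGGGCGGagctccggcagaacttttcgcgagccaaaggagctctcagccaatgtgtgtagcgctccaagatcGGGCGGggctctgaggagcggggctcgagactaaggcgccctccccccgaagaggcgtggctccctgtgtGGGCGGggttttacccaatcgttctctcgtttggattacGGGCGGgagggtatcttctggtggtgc
Srd5a3, chr5:76140023-76140322, plus strand: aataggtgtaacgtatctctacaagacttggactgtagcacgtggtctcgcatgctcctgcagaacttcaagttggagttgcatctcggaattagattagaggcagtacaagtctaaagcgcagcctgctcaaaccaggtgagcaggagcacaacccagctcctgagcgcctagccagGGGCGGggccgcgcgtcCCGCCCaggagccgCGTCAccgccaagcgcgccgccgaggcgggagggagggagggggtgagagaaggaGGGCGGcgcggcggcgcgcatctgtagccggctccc

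The Sult1e1 window and the outermost Cyp19a1 window each held AGGTCA on the strand opposite to the gene, 113 and 81 bases before the start. That core was in 2 of the 11 windows and in 16.3% of all 32851 windows of the table. The middle Cyp19a1 window held TATAAA on both strands, overlapping, with first bases 31 and 29 before the start. The innermost window held it at 157 and 143 bases before the start. TATAAA was in 13.6% of all windows.

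Srd5a1 had 4 GC boxes and Srd5a3 had 3, and 35.7% of all windows held at least 1. GC content was 63.0% in the Srd5a1 window and 63.3% in the Srd5a3 window, against 40.0% in that of Sult1e1 and a median of 52.7% over the table. TGACG was in the windows of Srd5a3 and Hsd17b12 and in 20.8% of all windows. The NR5A site CAAGGTCA, which contains AGGTCA, the cAMP response element TGACGTCA, which contains TGACG, and TGTTCT, the core of androgen and glucocorticoid receptor sites, were in 0 of the 11 windows and in 1.56%, 1.79% and 19.0% of all. Matches are descriptions of these letters, and counts per gene do not tell which start was used.

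Library totals ran from 8037826 to 10702930 counts. H3f4, the row of the deleted H3t (chr11:58961812-58962222), had 390, 571 and 356 counts in WT and 0 in each deletion library, which is at least 638-fold lower against a floor of 3 counts over the group. Values below are CPM, counts relative to the size of the library, scaled by TMM, and a log2 fold change is the deletion level less the WT level. Of 17038 genes that passed the filter on low counts, 6542 were called higher and 7861 lower at a false discovery rate of 0.05 with edgeR's quasi-likelihood test. The split depended on the scaling, with 45.4% of the calls higher with TMM, 42.3% with RLE, 55.1% with the upper quartile and 56.6% with no scaling factor. The median log2 fold change of all tested genes was -0.19, -0.36, 0.35 and 0.45 in that order. Under each of these 4 scalings the same 6 of the 9 genes were called higher and Cyp19a1 lower.

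The composition of the RNA differed between the groups. Summed spermatid markers (20 of 20 called lower, among them Prm2 and Odf2) went from 33019 to 34768 CPM in WT to 102 to 206 in the deletion, and spermatocyte markers (16 of 16 lower, among them Hspa2 and Ldhc) from 9607 to 9992 to 470 to 554. Summed Leydig markers (19 of 19 tested higher, among them Aldh1a1 and Ptgds) went from 730 to 960 to 6269 to 7419 CPM, and Sertoli markers (22 of 23 tested higher and 1 lower, among them Clu and Ctsl) from 1164 to 1278 to 5243 to 5324. Mitochondrial genes took 5.59 to 6.44% of WT counts and 21.6 to 22.7% of deletion counts. The nuclear RNA Malat1 took 0.201 to 0.211% of WT counts and 2.46, 2.44 and 1.49% in deletion replicates 1 to 3, with replicate 3 apart from the other two. Their part in the results below was not tested.

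Of the 9 genes, 6 were higher in the H3t deletion, Cyp19a1 was lower, Srd5a1 was not called and Hsd11b1 had too few counts to be tested. Sult1e1 and Esr1 had the largest gains, 12.6-fold and 8.08-fold, followed by Hsd17b12 at 7.03-fold, Akr1c14 at 3.36-fold, Srd5a3 at 3.07-fold and Hsd17b4 at 2.0-fold. The share of all tested genes called higher was 38.4%, and the share called lower was 46.1%. WT and deletion libraries were fully apart for 7 of the 8 tested genes. Over all tested genes that share was 85.9%, so the count is near the background. The median log2 fold change of the 8 was 1.68, against -0.19 over all tested genes. In bulk tissue, fewer cells of a type and less RNA per cell cannot be told apart. That holds for gains as well.

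**Figure D1:**
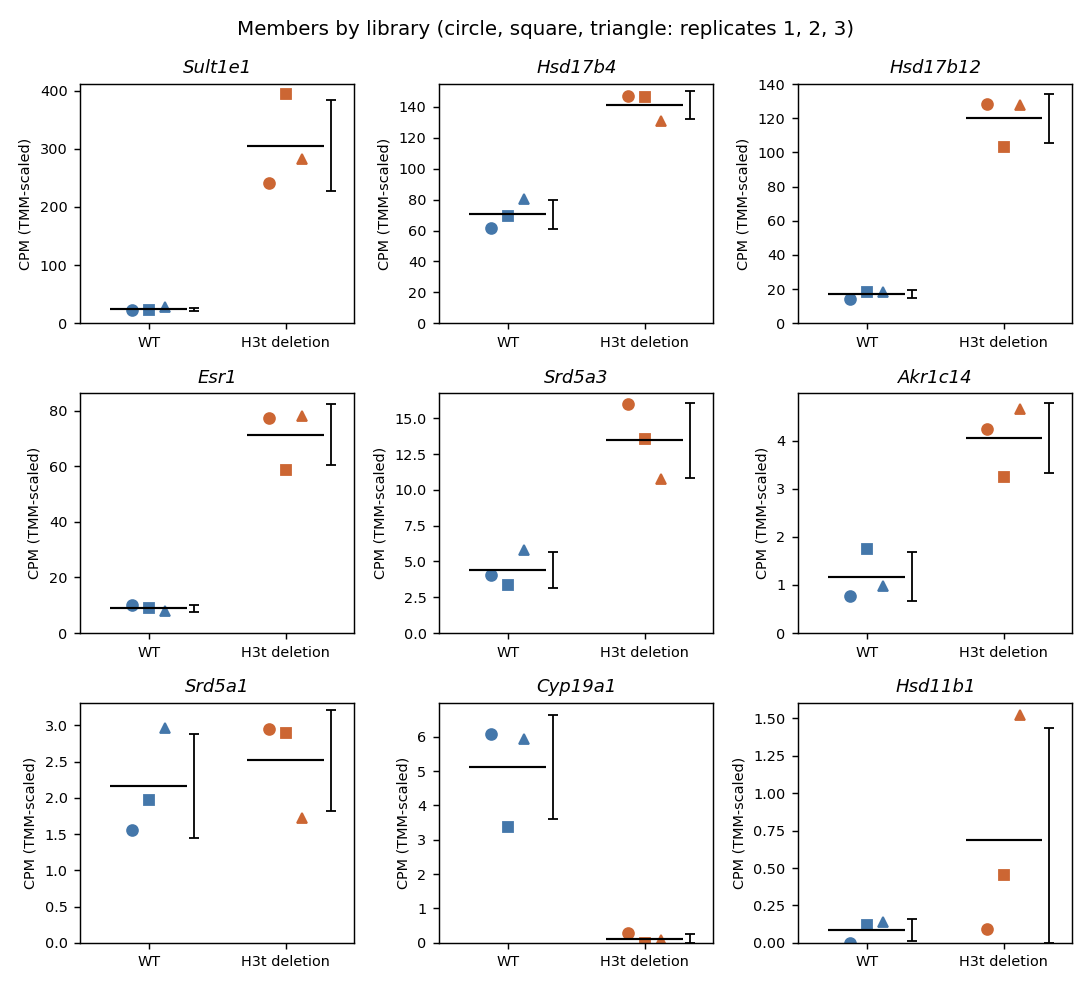
TMM-scaled CPM (vertical axes, each from 0) of the 9 genes in 3 WT and 3 H3t deletion libraries. Points are libraries, lines are group means and bars are 1 SD, drawn no lower than 0. The deletion libraries lie above WT for 6 genes and below WT for Cyp19a1, and they overlap WT for Srd5a1 and Hsd11b1.

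Cyp19a1 (ENSMUSG00000032274, chr9:54165937-54268110, minus strand), the aromatase that makes estrogens from androgens, was the only 1 of the tested genes to fall. It had 39, 29 and 42 counts in WT replicates 1 to 3, and 3, 0 and 1 in the deletion. As CPM these were 6.07, 3.37 and 5.92 in WT, and 0.276, 0 and 0.0953 in the deletion. Every deletion library was below every WT library. Over the groups, 110 counts stood against 4, a ratio of 40.3 (exact 95% interval 15.3 to 150, covering counting error only). The fitted log2 fold change was -5.22 (SE 0.67, Benjamini-Hochberg adjusted p = 3.02e-06 by edgeR's quasi-likelihood test), and it was -6.38 without deletion replicate 1, which held 3 of the 4 counts. Summed spermatid markers were also highest in that library, at 206 CPM against 160 and 102 in deletion replicates 2 and 3, and their part in the remaining Cyp19a1 counts was not tested.

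Of the reductase pair, Srd5a3 was called higher with TMM and Srd5a1 was not called. Srd5a1 (ENSMUSG00000021594, chr13:69573449-69611442, minus strand) makes dihydrotestosterone from testosterone, while Srd5a3 (ENSMUSG00000029233, chr5:76140271-76155504, plus strand) is best known for making dolichol, the lipid carrier of protein glycosylation. Srd5a1 had 10, 17 and 21 counts in WT and 32, 32 and 18 in the deletion. Its CPM was 1.56, 1.98 and 2.96 in WT against 2.95, 2.89 and 1.72 in the deletion, so the groups overlapped. The log2 fold change was 0.22 (Benjamini-Hochberg adjusted p = 0.650 by edgeR's quasi-likelihood test), with a 95% interval of -0.72 to 1.15 that reaches from a 0.608-fold to a 2.22-fold level. Changes of any size within that interval are compatible with these counts. Of its 50-base stretches, 15.1% are shared with Gm17108, a gene on the same strand with 41 counts in WT and 6 in the deletion. Nsun2 overlaps it on the other strand, without shared exon bases. The counts of Srd5a1 are uncertain for that reason, since how such reads were assigned is not given in the sources used here.

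Srd5a3 had 26, 29 and 41 counts in WT and 174, 150 and 113 in the deletion. Its CPM was 4.05, 3.37 and 5.78 in WT and 16.0, 13.6 and 10.8 in the deletion, with no overlap. The mean rose from 4.40 ± 1.24 to 13.5 ± 2.63 CPM (SD, n = 3 each), a log2 fold change of 1.62 (SE 0.27, Benjamini-Hochberg adjusted p = 4.31e-05 by edgeR's quasi-likelihood test). Within a library no scaling factor enters. The log2 ratio of Srd5a3 to Srd5a1 counts, not adjusted for length, was 1.01 ± 0.30 for WT and 2.42 ± 0.20 for the deletion libraries (SD, n = 3 each), with no overlap. In an exact permutation test (two-sided) the difference of 1.41 gave p = 0.1, the smallest that 3 against 3 libraries allow, and 0.15 after Benjamini-Hochberg adjustment over 3 pairs. The 3 pairs, this and those of Hsd17b12 with Hsd17b4 and Sult1e1 with Esr1, were chosen after their values were seen.

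Akr1c14 (ENSMUSG00000033715, chr13:4049011-4090688, plus strand) reduces dihydrotestosterone to a weak androgen. It had few counts, with 5, 15 and 7 counts in WT and 46, 36 and 49 in the deletion. The CPM values were 0.778, 1.74 and 0.987 in WT, all below the 4.24, 3.26 and 4.67 of the deletion. The log2 fold change was 1.75 (SE 0.44, Benjamini-Hochberg adjusted p = 0.00172 by edgeR's quasi-likelihood test). The pseudogene Gm18857 shares 5.80% of its 50-base stretches and had 0 counts in all 6 libraries.

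Hsd17b12 and Hsd17b4 are named as steroid dehydrogenases, but each has a main task in fatty acid metabolism. Hsd17b12 (ENSMUSG00000027195, chr2:94032689-94157964, minus strand) is the ketoacyl reductase of fatty acid elongation and has been described to make estradiol from estrone. It had 92, 159 and 128 counts in WT and 1395, 1142 and 1341 in the deletion. The CPM was 14.3, 18.5 and 18.0 in WT and 128, 103 and 128 in the deletion, where replicate 2 was lowest and still far above WT. The mean rose from 17.0 ± 2.29 to 119.9 ± 14.4 CPM, 7.03-fold (95% interval 5.76 to 8.57, Benjamini-Hochberg adjusted p = 1.75e-11 by edgeR's quasi-likelihood test).

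Hsd17b4 (ENSMUSG00000024507, chr18:50128201-50196269, plus strand), a peroxisomal enzyme of fatty acid breakdown that also oxidises estradiol, had the smallest gain of those called. Counts were 398, 596 and 571 in WT and 1599, 1616 and 1371 in the deletion. The CPM was 62.0, 69.3 and 80.5 in WT against 147, 146 and 131, with no overlap. The mean rose from 70.6 ± 9.34 to 141 ± 9.26 CPM, 2.0-fold (95% interval 1.71 to 2.34, Benjamini-Hochberg adjusted p = 3.49e-07 by edgeR's quasi-likelihood test). The log2 ratio of Hsd17b12 to Hsd17b4 counts within a library, not adjusted for length, went from -2.05 ± 0.13 for WT to -0.24 ± 0.24 for the deletion (SD, n = 3 each). This shift of 1.81 gave p = 0.1 in the exact permutation test (0.15 adjusted over the 3 pairs), and the groups did not overlap.

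Hsd11b1 (ENSMUSG00000016194, chr1:193221634-193264075, minus strand) converts inactive glucocorticoids to active ones and in the rat is abundant in adult Leydig cells. It had 0, 1 and 1 counts in WT and 1, 5 and 16 in the deletion. Deletion replicate 3 held 16 of the 22 deletion counts, and deletion replicate 1 was at the level of WT. The ratio of the summed counts, scaled for depth, was 7.51 (exact 95% interval 1.85 to 65.9, covering counting error only). The gene did not pass the filter. Its span overlaps Gm38118 on the same strand and Lamb3 and 4930570N18Rik on the other, without shared exon bases. In a fit with no filter its log2 fold change was 2.80 (Benjamini-Hochberg adjusted p = 0.0560 by edgeR's quasi-likelihood test), so no change was called at this depth.

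Sult1e1 (ENSMUSG00000029272, chr5:87575969-87591594, minus strand), the estrogen sulfotransferase, was the most raised of the genes. It had 151, 190 and 193 counts in WT and 2622, 4350 and 2954 in the deletion. The CPM was 23.5, 22.1 and 27.2 in WT and 241.5, 393 and 282 in the deletion. All deletion libraries were far above WT, and deletion replicate 2 was highest. The mean rose from 24.3 ± 2.64 to 305.5 ± 78.7 CPM, 12.6-fold (95% interval 9.83 to 16.2, Benjamini-Hochberg adjusted p = 1.16e-11 by edgeR's quasi-likelihood test).

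Esr1 (ENSMUSG00000019768, chr10:4611593-5005614, plus strand), estrogen receptor alpha, had 195 counts over the WT libraries and 2310 over the deletion libraries. The CPM was 9.96, 8.84 and 7.75 in WT and 77.6, 58.7 and 78.1 in the deletion. WT libraries were close to each other, and the lowest deletion library was replicate 2. The mean rose from 8.85 ± 1.10 to 71.4 ± 11 CPM, 8.08-fold (95% interval 6.35 to 10.3, Benjamini-Hochberg adjusted p = 8.46e-11 by edgeR's quasi-likelihood test). The log2 ratio of Sult1e1 to Esr1 counts within a library was 1.45 ± 0.31 in WT and 2.08 ± 0.59 in the deletion, and the exact permutation test gave p = 0.2.

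Beside Esr1, markers of the rete, efferent ducts and epididymis, which can be caught in a section, were lower in the deletion as a sum, at 195 to 252 CPM in WT and 93.4 to 108 in the deletion. Of the 8 tested, 2 were higher and 6 lower, among them Defb19 (log2 fold change 1.90) and Cst8 (-3.44). Cst8, the most abundant of the list, had 119, 95.7 and 128 CPM in WT and 9.95, 13.3 and 8.20 in the deletion. Which cells the counts of Cst8 or Defb19 came from cannot be told in bulk tissue. Without Cst8, an alternative chosen after seeing the data, the sum was 99.8 to 124 CPM in WT and 80.1 to 97.8 in the deletion. Crisp1, Lcn5, Lcn8, Lcn9 and Spink12 were at 0 in all 6 libraries. The sum of the whole list varied among the deletion libraries, with 108, 93.4 and 101 CPM in replicates 1 to 3. Summed adipocyte markers also varied, at 40.4, 9.13 and 32.8 CPM in deletion replicates 1 to 3 against 9.53 to 10.3 in WT, with Fabp4 at 101, 4 and 98 counts and Plin1 at 175, 70 and 122. Among the deletion libraries the summed rete, efferent duct and epididymis markers, Fabp4, Plin1 and the adipocyte sum were lowest in replicate 2, where Esr1 was also lowest. Cst8 was highest in that library, and Defb19 was lowest in replicate 3. Summed Leydig, macrophage, mesenchyme and endothelial markers were also lowest in replicate 2, and summed myoid markers in replicate 3. The Leydig sum was 7419, 6269 and 7294 CPM in deletion replicates 1 to 3. The part of any of these in the Esr1 level was not tested.

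Levels of different genes were compared per kilobase of exon. In WT the order of CPM per kilobase was Hsd17b4 at 20.7 ± 2.74 and Sult1e1 at 19.5 ± 2.13, which did not differ beyond their spread, then Hsd17b12 at 7.04 ± 0.95. Below these were Cyp19a1 at 1.13 ± 0.34, Srd5a3 at 0.947 ± 0.267, Srd5a1 at 0.744 ± 0.248 and Esr1 at 0.648 ± 0.081, neighbours whose libraries overlapped, and then Akr1c14 at 0.361 ± 0.157 and Hsd11b1 at 0.0202 ± 0.0177. In the deletion Sult1e1 led at 246 ± 63.4 CPM per kilobase, followed by Hsd17b12 at 49.8 ± 5.97 and Hsd17b4 at 41.5 ± 2.72, whose libraries overlapped. Esr1 came next at 5.23 ± 0.81, ahead of Srd5a3 at 2.89 ± 0.57, Akr1c14 at 1.25 ± 0.22 and Srd5a1 at 0.866 ± 0.239, with overlap between Akr1c14 and Srd5a1. Hsd11b1 at 0.162 ± 0.175 and Cyp19a1 at 0.0274 ± 0.0310 were last and overlapped. With the length of the longest transcript in place of all exons, Esr1 and Srd5a1 traded ranks 6 and 7 in WT. On that length the deletion levels of Esr1, Srd5a3 and Hsd11b1 were 11.3, 6.06 and 0.349 CPM per kilobase. The WT level of Cyp19a1 was 2.09. Each of these levels was over 1.5 times the level per kilobase of all exons. The factor of a gene is the same in both groups, since only its length changes.

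**Figure D2:**
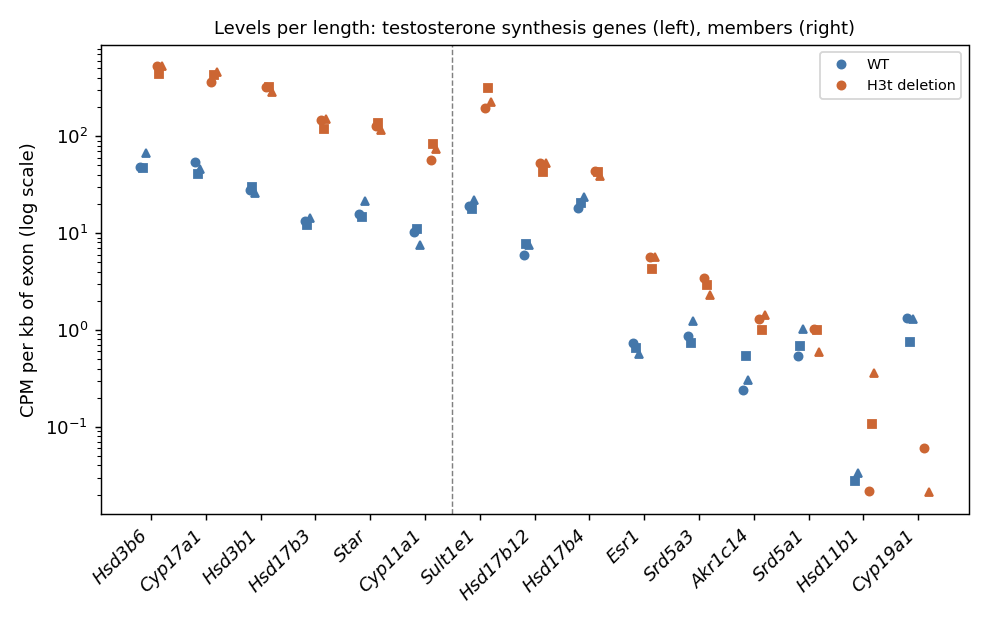
TMM-scaled CPM per kilobase of exon (log axis) of 6 genes of testosterone synthesis, left of the dashed line, and the 9 genes of steroid metabolism and reception, right of it, each ordered by the deletion level. Blue points are WT and orange points deletion libraries (circle, square and triangle for replicates 1, 2 and 3), and libraries at 0 are not drawn (Hsd11b1 in WT replicate 1, Cyp19a1 in deletion replicate 2). Sult1e1 reached 194 to 317 CPM per kilobase in the deletion, within the range of the genes of testosterone synthesis.

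The direction of most of these genes depended on what they were compared with. Leydig and Sertoli cell genes as a whole took a larger share of the RNA in the deletion, so the test was repeated with libraries scaled to an equal mean level of 19 Leydig markers, none of which was among the 9 genes. At that level Sult1e1 was called higher and 5 genes lower. Of the 19 Leydig markers themselves 3 were higher and 2 lower. Of all tested genes 0.534% were higher and 88.9% lower at the Leydig level. A gene lower at this level had thus the direction of nearly the whole table.

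At the Leydig level Sult1e1 was higher by 0.65 on the log2 scale (SE 0.19, 95% interval 0.23 to 1.06, Benjamini-Hochberg adjusted p = 0.00512 by edgeR's quasi-likelihood test). It was at 0.35 without deletion replicate 2 (adjusted p = 0.0440) and at 1.02 with the median in place of the mean of the markers. Esr1, at -0.027 (95% interval -0.44 to 0.38, adjusted p = 0.898), and Hsd17b12, at -0.21 (-0.54 to 0.11, adjusted p = 0.196), were not called, and with the median of the markers they stood at 0.31 (95% interval -0.20 to 0.83) and 0.14 (-0.33 to 0.61).

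The other tested genes were lower at the Leydig level, where the median log2 fold change of all tested genes was -3.21. Only Cyp19a1 lay below that median. Hsd17b4 was at -2.02 (adjusted p = 2.28e-10), Srd5a3 at -1.39 (adjusted p = 0.000294), Srd5a1 at -2.78 (adjusted p = 2.98e-05) and Cyp19a1 at -8.17 (adjusted p = 1.38e-09, each Benjamini-Hochberg adjusted from edgeR's quasi-likelihood test). Akr1c14 was at -1.27 (adjusted p = 0.0199). Its call was lost without WT replicate 2, where it was at -0.82 (adjusted p = 0.199), without deletion replicate 1 (-1.29, adjusted p = 0.0512) or deletion replicate 2 (-1.18, adjusted p = 0.0629), and with the median of the markers (-0.90, adjusted p = 0.126).

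Scaled to an equal level of 23 Sertoli markers instead, 3 genes were higher and 3 lower, against 3.72% of all tested genes higher and 76.2% lower. Of the 23 markers themselves 4 were higher and 5 lower. The median log2 fold change of all tested genes was -2.37 at this level. Sult1e1 was higher by 1.46, Esr1 by 0.84 and Hsd17b12 by 0.65 on the log2 scale (Benjamini-Hochberg adjusted p = 8.66e-08, 0.00120 and 0.00194 by edgeR's quasi-likelihood test). Hsd17b4 was at -1.18, Srd5a1 at -1.94 and Cyp19a1 at -7.35 (adjusted p = 2.84e-07, 0.000866 and 2.47e-10). Srd5a3 at -0.56 (adjusted p = 0.111) and Akr1c14 at -0.39 (adjusted p = 0.482) were not called. Without WT replicate 2 Srd5a3 was called lower, at -0.80 (adjusted p = 0.0331).

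**Figure D3:**
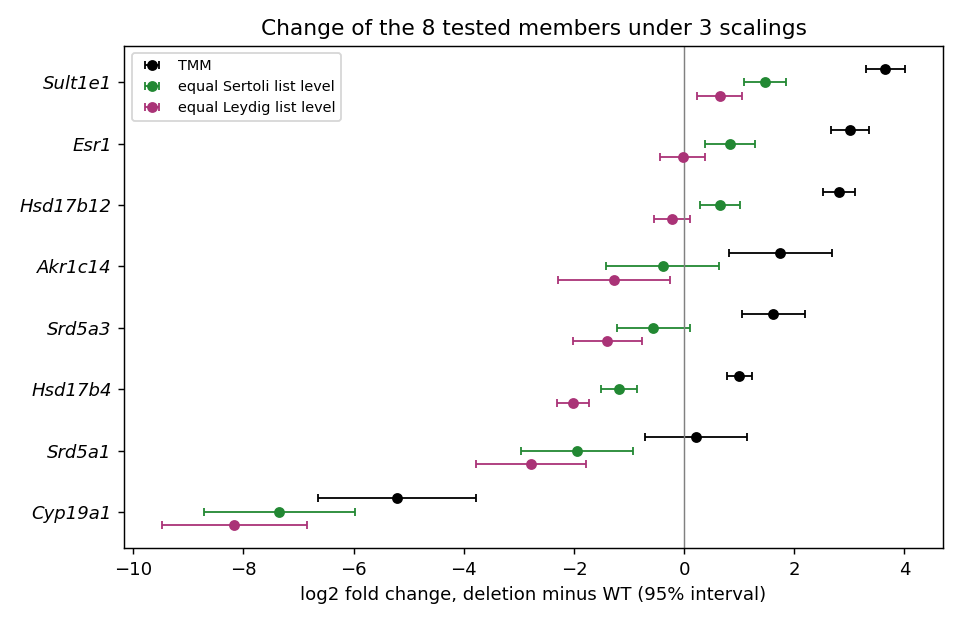
Log2 fold change, deletion minus WT, of the 8 tested genes (horizontal axis, bars are 95% intervals) with TMM, with equal levels of the Sertoli markers and with equal levels of the Leydig markers. Sult1e1 lies above 0 and Cyp19a1 below 0 under all 3, while Hsd17b4, Srd5a3, Akr1c14 and Srd5a1 change sign between TMM and the other scalings.

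Within each library the log2 level of a gene was set against the mean log2 level of the same Leydig markers. This needs no scaling between libraries, but it is the Leydig-level contrast in another form and not independent of it. These values are not adjusted for length, so they compare the groups and not the genes. Hsd17b4 stood above them by 2.26, 2.37 and 2.43 in WT replicates 1 to 3 and by 0.35, 0.49 and 0.15 in the deletion. Sult1e1 stood above them by 0.87, 0.72 and 0.87 in WT and by 1.06, 1.92 and 1.26 in the deletion, and deletion replicate 2 was again highest. Esr1 lay below the markers in all libraries, at -0.37, -0.60 and -0.94 in WT and -0.57, -0.82 and -0.59 in the deletion, so the groups overlapped. The exact permutation test gave p = 0.1, the smallest possible, for Hsd17b4 and Sult1e1 (0.129 adjusted over 9 genes) and 1 for Esr1. The groups did not overlap for Cyp19a1, Srd5a1, Srd5a3, Akr1c14 and Hsd17b12 either, with differences of -8.33, -2.82, -1.42, -1.24 and -0.21 (exact permutation p = 0.1 for each). The share of all genes without overlap on this measure was not computed. At the Leydig level 88.9% of all tested genes were lower, so these differences had the direction of nearly the whole table. For Cyp19a1 the size rests on the 0.5 counts added before the log. With the median of the markers Hsd17b12 was at 0.13 and its groups overlapped.

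**Figure D4:**
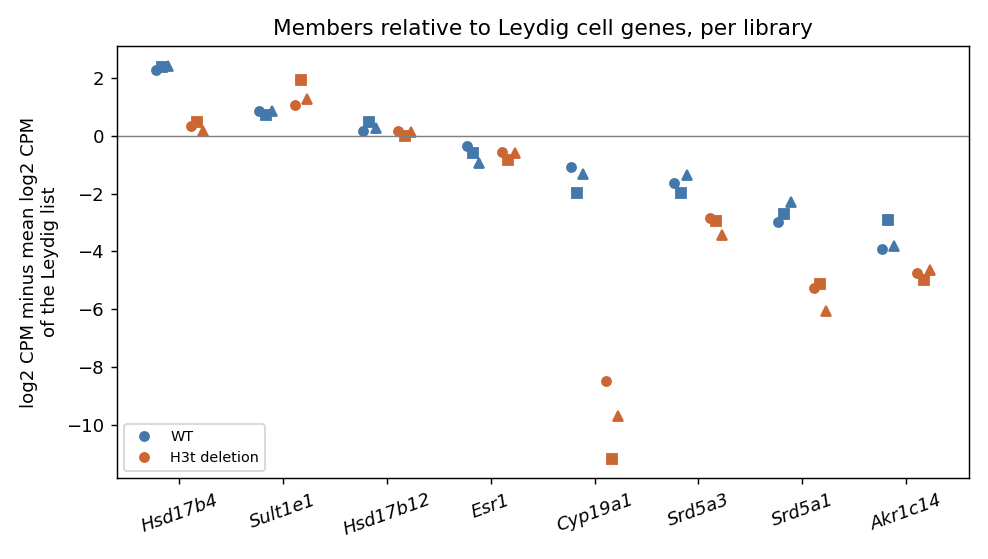
Log2 CPM of 8 genes minus the mean log2 CPM of the Leydig markers in the same library (vertical axis), blue for WT and orange for the H3t deletion, with circles, squares and triangles for replicates 1, 2 and 3. Hsd17b4 went from 2.26 to 2.43 in WT to 0.15 to 0.49 in the deletion, Sult1e1 was above its WT range in the deletion, and the groups overlap for Esr1.

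The rest of the pathway was described by lists of genes grouped by function. Of the genes that lead from cholesterol to androgens, 7 of 7 were higher. They were Star, which brings cholesterol into mitochondria, Cyp11a1, Fdx1 and Fdxr, which cleave its side chain, and the androgen-forming Hsd3b1, Hsd3b6 and Cyp17a1. Their log2 fold changes were 2.86, 2.89, 1.34, 2.84, 3.48, 3.21 and 3.16, with a median of 2.89. Sult1e1 was at 3.66 on the same scale. With libraries scaled to an equal level of these 7 genes, Sult1e1 was higher by 0.83 (SE 0.17, Benjamini-Hochberg adjusted p = 0.000225 by edgeR's quasi-likelihood test). Its log2 level relative to the 7 within a library differed by 0.80 when taken against their mean (exact permutation p = 0.1, no overlap), and by 0.29 against their median (exact permutation p = 0.3, with overlap). At the Leydig level 1 of the 7 was higher, 1 lower and the median was -0.14.

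Among 24 further steroid reductases and dehydrogenases, 9 were tested, of which 8 were higher and 1 was not called, with a median of 2.51. Hsd17b3, which makes testosterone in Leydig cells, was at 3.39, Hsd17b7, which acts in cholesterol synthesis, at 3.38, and Akr1cl, the most abundant, at 3.16. The median was -0.51 at the Leydig level, where 1 was higher and 3 lower. Of 19 genes of sulfation, conjugation, steroid hydroxylation and export, 15 were tested, and 11 were higher and 2 lower (median 1.87). Papss2, which makes the sulfate donor that Sult1e1 uses, was at 2.65, the sulfotransferase Sult1a1 at 2.83 and the exporter Abcc1 at 2.08. The cholesterol sulfotransferase Sult2b1 was at -2.18 and the exporter Abcg2 at -2.06. At the Leydig level 0 were higher and 11 lower (median -1.15).

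Of 14 other steroid and related nuclear or membrane receptors 10 were tested, and 7 were higher and 2 lower (median 1.97). Esrrg was at 2.95, Nr5a1, the regulator of steroid-producing cells, at 2.79, the progesterone receptor membrane component Pgrmc1 at 2.31, its relative Pgrmc2 at -0.80 and Esrrb at -2.23. The second estrogen receptor, Esr2, did not pass the filter. Of 15 receptor cofactors, chaperones and carriers 14 were tested, and 9 were higher and 3 lower (median 0.88). The steroid carrier Shbg was at 2.69, the corepressor Nrip1 at 2.55, the chaperone Ptges3 at -1.60, Ncoa4 at -1.20 and Ncor1, not called, at 0.16. At the Leydig level 8 of the 10 receptors and 13 of the 14 cofactors were lower and 0 higher in both lists.

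The partners of Srd5a3, Hsd17b4 and Hsd17b12 in dolichol and long-chain fatty acid metabolism made up a list of 17, all tested, with 14 higher and 1 lower (median 1.53). Elovl5, an elongase of the pathway of Hsd17b12, was at 2.64, Amacr, a racemase that acts ahead of Hsd17b4, at 2.45, and Dolpp1, which recycles dolichol phosphate, at -0.66. At the Leydig level 0 were higher and 14 lower (median -1.49).

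**Figure D5:**
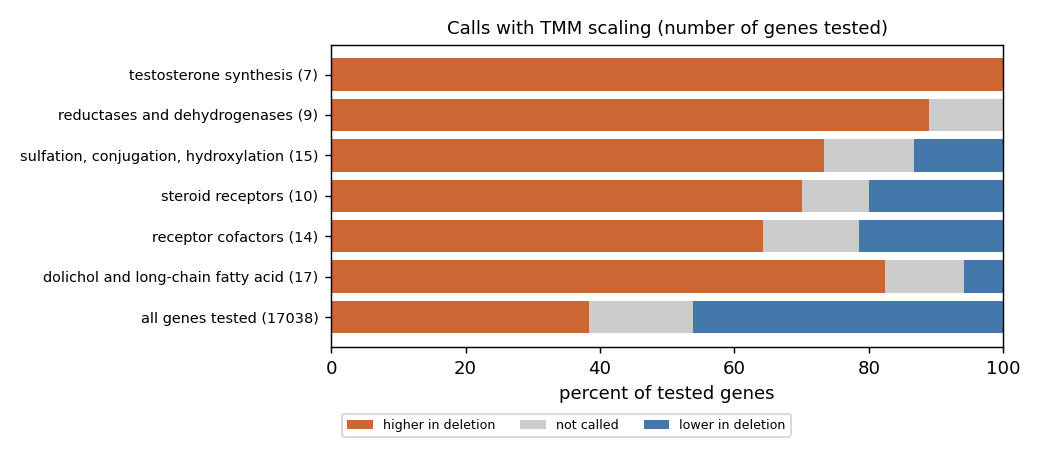
Percent of the tested genes of each list (number in brackets) called higher, not called or called lower in the H3t deletion with TMM scaling, beside all 17038 tested genes. With TMM every list had more genes higher than lower, whereas at the Leydig level more were lower than higher in 5 of the 6 lists and 1 gene each was higher and lower in the list of testosterone synthesis.

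The genes most like each of the 8 tested genes over the 6 libraries were found among 8446 called genes by the distance between their log2 CPM values, each centred on its own mean, where 0 is an identical pattern. Nearest to Hsd17b4 were Spata13 and Nmt2 (0.123 and 0.127), nearest to Hsd17b12 Sparcl1 and Zcchc24 (0.135 and 0.141), and nearest to Esr1 Rims4 and Il13ra1 (0.217 and 0.238). Srd5a3 was nearest to Zfp950 and Glo1 (0.200 and 0.304) and Akr1c14 to Zfp777 and Alg2 (0.228 and 0.263). Sult1e1 was farther from its nearest genes, Emb and Lipg, at 0.600 and 0.618. For Cyp19a1 the nearest were Ska1 and Pgbd1 (0.537 and 0.584), and for Srd5a1 Iffo1 and Naalad2 (0.480 and 0.507).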

How the data were processed

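The deposited values are raw counts of reads per Ensembl gene. Reads had been trimmed with Trim Galore, mapped to GRCm38 with HISAT2 and counted with featureCounts, as the submitters' processing notes list. Tool versions, the release of the annotation and the strand setting of the counting were not given in the sources used here. Reads in overlapping genes are uncertain for that reason. The labels' protocols name a stranded SMART-Seq kit. All 54100 rows had a gene name, and the number of value columns not used was 0. Coordinates, exon lengths and shared 50-base stretches were taken from GENCODE M21 for the same build.

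R 4.3.3 and edgeR 4.0.16 were used. After filterByExpr 17038 genes remained, TMM scaled the libraries, and the groups were tested two-sided by edgeR's quasi-likelihood test (glmQLFit, glmQLFTest), adjusted by Benjamini-Hochberg over all 17038, and called at a false discovery rate of 0.05. Biological variation between libraries had a coefficient of 13.1%. TMM factors ran from 0.794 to 0.806 for WT and from 1.21 to 1.27 for the deletion, and 1 count equalled 0.0904 to 0.156 CPM. The test was repeated with library sizes set so that the mean log2 CPM of a marker list was equal in every library. Levels within a library used counts plus 0.5 and exact permutation tests. The labels tell mice apart by title numbers alone, so p-values reflect only how far these samples spread, in part perhaps technically. The fit with TMM and the scaling to a marker list were also run on simulated counts in which few genes differed. In these data most tested genes differed, so those runs do not tell how the fit does here.

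The genes and lists were chosen with earlier results of these data known. Named are the 9 genes, H3f4 and the testosterone synthesis list. Each other pathway list adds up to 2 called genes with the largest gains and 2 with the largest losses at a mean of at least 1 CPM, and its most abundant gene. A cell type list that is described adds its 2 most abundant genes, and each of the 8 tested genes adds the 2 nearest in pattern among called genes of at least 10 CPM. Nr5a1 is in the receptor and Leydig lists, and Shbg in the cofactor and Sertoli lists. Alternatives were other scalings, filters and thresholds, a 1.5-fold minimum in the test, DESeq2 1.42.0, limma 3.58.1 voom, and each library left out in turn.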

Additional observations from a re-analysis of the deposited data

How the results depend on the processing

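The calls of 6 genes higher and 1 lower held with RLE, upper-quartile and no scaling factor, no filter, DESeq2, limma voom, a threshold of 0.01, a 1.5-fold minimum in the test and each library left out (7 called each time). With a minimum of 10 CPM in 3 libraries only 5 of the genes were tested, and 5 were higher. Among all genes, 14338 to 14878 of the 17802 to 18114 tested were called with a library left out. Of the 17038 tested, 14252 were called with RLE, 14720 with the upper quartile and 14803 with no scaling factor. Of the same 17038, 14012 were called with DESeq2, 14349 with voom, 12317 against a 1.5-fold change and 13314 at the stricter rate. With no filter 17145 of 31460 were called. With at least 10 CPM 9949 of 11050 were called, of which 4898 were higher and 5051 lower.

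Scaling to a marker list turned directions, since the list itself rose with TMM. At Leydig, Sertoli and testosterone synthesis level, Srd5a1 was at -2.78, -1.94 and -2.59, Srd5a3 at -1.39, -0.56 and -1.20, Akr1c14 at -1.27, -0.39 and -1.07, and Hsd17b4 at -2.02, -1.18 and -1.82. At Leydig and testosterone synthesis level Hsd17b12 was at -0.21 and -0.015, and Esr1 at -0.027 and 0.18. At these 3 levels 91, 634 and 151 genes were higher and 15145, 12990 and 14813 lower. With a library left out, 5 to 6 of the 8 were called at Leydig level and 6 to 7 at Sertoli level. No paired analysis was possible because the mouse numbers in the titles are not shared between the groups. Depth limits Hsd11b1, Srd5a1, Akr1c14 and the deletion level of Cyp19a1 most.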

Other observations

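Further genes of the pathway lists, chosen after their values were seen, covered several steps. All values here are log2 fold changes with TMM from edgeR's quasi-likelihood test, with which 38.4% of all tested genes were called higher. At the Leydig level 1 gene was higher and 3 lower in the list of reductases and dehydrogenases. In the sulfation and dolichol lists 0 were higher at that level, and 11 and 14 were lower. H6pd, which supplies the cofactor of Hsd11b1, rose by 2.25 although Hsd11b1 itself had only 2 counts in WT and 22 in the deletion. Papss1 and Slc35b2, which make and carry the sulfate donor, rose by 1.87 and 1.91. Cyp1b1, which hydroxylates estrogens, rose by 1.56. Of the dehydrogenase family, Hsd17b11 rose by 3.17 and Hsd17b10 by 2.51, and Akr1c12 and Akr1c13, relatives of Akr1c14, by 1.97 and 1.16. In dolichol synthesis, ahead of and behind Srd5a3, Dolk rose by 1.86 and Nus1 by 0.35, while Dhdds was at 0.01 and not called. Srd5a2, the other reductase for testosterone, had 4 counts in WT and 15 in the deletion and was not tested.

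Other cell types of the section differed in the same comparison. Of macrophage markers 15 of 16 were higher (Mrc1 1.85, Mpeg1 2.96) and their sum went from 124 to 138 CPM in WT to 587 to 803 in the deletion. Of mesenchyme markers 11 of 13 were higher and 1 lower (Gsn 1.52, Col1a2 1.45), of endothelial markers 8 of 12 were higher (Cdh5 1.5, and Vwf at 0.33 was not called), and of myoid markers 7 of 10 were higher and 1 lower (Myh11 1.51, Actg2 -5.49). Spermatogonial markers had 7 higher and 2 lower of 10 tested (Kit 3.13, Dmrtb1 -6.21). Their sum went from 479 to 547 CPM in WT to 374 to 435 in the deletion. Mean CPM went from 21.1 to 185 for Kit and from 359 to 4.84 for Dmrtb1. Which cells the Kit counts came from cannot be told in bulk tissue. Of 4 adipocyte markers tested 1 was higher and 1 lower (Plin1 2.73), and the only blood marker tested, Alas2, was at 0.26 and not called. At the Leydig level the medians of these lists were -0.12, -0.73, -1.63, -1.82, -1.26, -3.17 and -2.77 in that order, against -3.21 over all tested genes.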
